A study of Homo sapiens with 14 samples.

Results

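ITGAM, LAPTM5, IL4I1 and UBD are genes best known from leukocytes and from cells under inflammatory signals, and they were followed here in HT-29, an epithelial line from a human colorectal carcinoma. They were taken by name from the deposited count table, which makes 4 of 36555 gene IDs, and all 4 were among the 22179 genes with enough counts to test. The 4 were chosen by their counts in TNF against control, which an earlier look at the same table had found high. That contrast is therefore given below as a description with no test. In each of the 7 libraries with TNF each of the 4 genes lay above its level in all 7 libraries without it. This split includes the libraries that chose the genes, and the share of all genes that show it was not counted. None of the 4 was absent without TNF, where each library held 8 to 120 counts of each gene.

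The study compared ferrostatin-1 and liproxstatin-1, which trap lipid radicals and block ferroptosis, a cell death that depends on iron, in cells that TNF drives into apoptosis. Poly(A) RNA was sequenced from 6 groups of wild-type HT-29 cells and 14 libraries. The groups were control with 0.1% DMSO (3 libraries), 20 uM ferrostatin-1 (2), 20 uM liproxstatin-1 (2), TNF (2), TNF with 20 uM ferrostatin-1 (3) and TNF with 20 uM liproxstatin-1 (2). Compounds were given for 72 h, and recombinant human TNF at 100 ug/ml, as the labels state it, over the same 72 h. Replicates are described as technical and all came from 1 cell line, so the p-values below measure only the spread between these libraries.

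ITGAM encodes the alpha M chain of the complement receptor Mac-1, which needs the beta chain encoded by ITGB2 to reach the surface of neutrophils and macrophages, where it binds complement fragments and ICAM1. LAPTM5 encodes a lysosomal membrane protein of blood cells that sends antigen receptors to degradation. IL4I1 encodes a secreted amino acid oxidase of macrophages and dendritic cells that breaks down phenylalanine and tryptophan. UBD encodes FAT10, a ubiquitin-like modifier that marks proteins for the proteasome and is known to be induced by TNF and interferon gamma, also in epithelial cells. TNF acts through its receptors on the NF-kB factors, whose sites lie in the promoters of many inflammatory genes.

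Because the 4 genes rose together with TNF, the 250 bases before each gene's start were read from RefSeq (GRCh38.p14), where all 4 genes were matched. Both strands were searched for 6 motifs: an NF-kB consensus, the ISRE core (GAAA repeated after any 2 bases), the GAS core TTCNNNGAA, the AP-1 site TGANTCA, the PU.1-type ETS core GAGGAAGT and the TATA box TATAAA. The UBD window held 1 NF-kB match, from 53 to 44 bases before the start, and 9.96% of 35116 windows of the same length held one. GENCODE v29 starts UBD further upstream, at 29559925, so there 193 of the 250 bases, the match included, lie in an exon of UBD itself. No other motif was found in the 4 windows, against 2.17% of all windows for the PU.1-type core, 3.02% for the ISRE core, 6.57% each for the GAS core and the AP-1 site, and 10.7% for the TATA box. Shown first are the 30 bases around the UBD match, in capitals, at chr6:29559766-29559795 on the minus strand. The stretches before ITGAM (chr16:31259725-31259966, plus strand) and LAPTM5 (chr1:30757821-30758024, minus strand) are shown beside it as upstream sequence of 2 leukocyte genes in which none of the 6 motifs was found. Exonic bases in GENCODE v29 were left off these 2 stretches (8 for ITGAM and 46 for LAPTM5). The IL4I1 window, of which all 250 bases are in exons of IL4I1 or its neighbours, is not shown.
UBD: aatccaggcaGGGGATTTCCaactcaactc
ITGAM: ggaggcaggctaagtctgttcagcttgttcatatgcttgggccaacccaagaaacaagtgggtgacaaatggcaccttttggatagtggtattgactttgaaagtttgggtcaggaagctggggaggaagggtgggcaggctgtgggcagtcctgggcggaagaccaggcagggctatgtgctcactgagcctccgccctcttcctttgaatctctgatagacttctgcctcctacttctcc
LAPTM5: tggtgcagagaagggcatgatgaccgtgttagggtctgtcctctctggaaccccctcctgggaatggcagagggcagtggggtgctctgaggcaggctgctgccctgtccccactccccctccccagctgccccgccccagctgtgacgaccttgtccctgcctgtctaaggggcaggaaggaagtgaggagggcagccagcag
A match or its lack describes these letters only and shows no binding. A site that differs from a motif in 1 base was not counted, such as aaggaagt in the LAPTM5 stretch beside the PU.1-type core. The windows also differed in base composition: GC content was 41.6% before UBD, 53.2% before ITGAM, 61.6% before IL4I1 and 64.8% before LAPTM5, with a median of 58.0% over all windows.

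Total counts lay between 59913850 and 75838597 per library. Levels are given as CPM, counts scaled to library size after TMM scaling, which evens out differences in depth and composition. The 2 TNF libraries were less alike (r = 0.966 across genes on log2 CPM) than pairs within the other groups (0.973 to 0.978). Another split crossed the groups and is seen in the keratin gene KRT81. Controls and TNF libraries held 43.7 to 50.4 CPM of it and the libraries of TNF with ferrostatin-1 1.47 to 1.80, while it was uneven within ferrostatin-1 (57.05 and 1.45), liproxstatin-1 (1.05 and 14) and TNF with liproxstatin-1 (13.55 and 1.85). Libraries are named below by the numbers of their count columns. The summed level of 18 colon epithelial markers, with EPCAM, KRT8 and CDH1 among them, was 10300 to 15300 CPM over the libraries. Of 17 tested, 6 fell and 0 rose in TNF with ferrostatin-1 against ferrostatin-1, and 4 fell and 0 rose in TNF with liproxstatin-1 against liproxstatin-1. Of all genes, 9.36% fell and 8.76% rose in the first comparison, and 7.03% fell and 7.57% rose in the second. CDH1 fell by 1.07 and 0.90 there (edgeR adjusted p = 1.38e-05 and 0.000199), and the part of these falls in the results below was not tested.

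ITGAM (ENSG00000169896, chromosome 16, 31259967 to 31332892, plus strand) stayed below 1 CPM in each library without TNF. Its level was 0.496, 0.438 and 0.467 CPM in the controls, 0.332 and 0.552 with ferrostatin-1, and 0.210 and 0.267 with liproxstatin-1. With TNF it was 23.2 and 21.4 CPM alone, 18.8, 17.0 and 17.4 with ferrostatin-1, and 20.4 and 21.9 with liproxstatin-1. The lowest library with TNF thus stood 30.7 times above the highest without it. Without TNF the gene had 12 to 37 counts in a library.

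UBD (ENSG00000213886, chromosome 6, 29555515 to 29559732, minus strand) showed the same split. It was at 0.688, 0.956 and 0.608 CPM in the controls, 0.511 and 0.418 with ferrostatin-1, and 0.700 and 0.520 with liproxstatin-1. With TNF it reached 37.4 and 35.8 CPM alone, 33.3, 28.2 and 25.2 with ferrostatin-1, and 33.8 and 23.4 with liproxstatin-1. The sets with and without TNF were 24.4-fold apart at their nearest libraries, and within TNF the compound groups overlapped each other.

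IL4I1 (ENSG00000104951, chromosome 19, 49889654 to 49929539, minus strand) showed a difference also within the TNF libraries. The controls held 0.840, 1.59 and 1.09 CPM, ferrostatin-1 0.870 and 1.21, and liproxstatin-1 2.01 and 1.19. TNF alone gave 64.9 and 50.4 CPM, TNF with ferrostatin-1 36.6, 30.5 and 33.3, and TNF with liproxstatin-1 60.0 and 56.9. Libraries with TNF and ferrostatin-1 were lower than all others with TNF, which also held for ITGAM and LAPTM5. Of all genes, 23.7% were lower without overlap than in TNF alone, and 18% lower than in TNF with liproxstatin-1. The share with both gaps was not counted, and the libraries with TNF alone had served to choose the genes. For IL4I1 the gap to the libraries without TNF was 15.2-fold at its nearest.

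LAPTM5 (ENSG00000162511, chromosome 1, 30732469 to 30757774, minus strand) was uneven without TNF. Its level was 0.785, 0.531 and 0.934 CPM in the controls, 0.566 and 0.701 with ferrostatin-1, and 1.10 and 0.119 with liproxstatin-1. Liproxstatin-1 library 3 held 8 counts of the gene where library 1 held 63. With TNF the level was 11.5 and 8.49 CPM alone, 5.92, 6.45 and 6.06 with ferrostatin-1, and 8.33 and 7.96 with liproxstatin-1. The nearest libraries with and without TNF differed 5.37-fold, the smallest gap of the 4 genes.

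**Figure D1:**
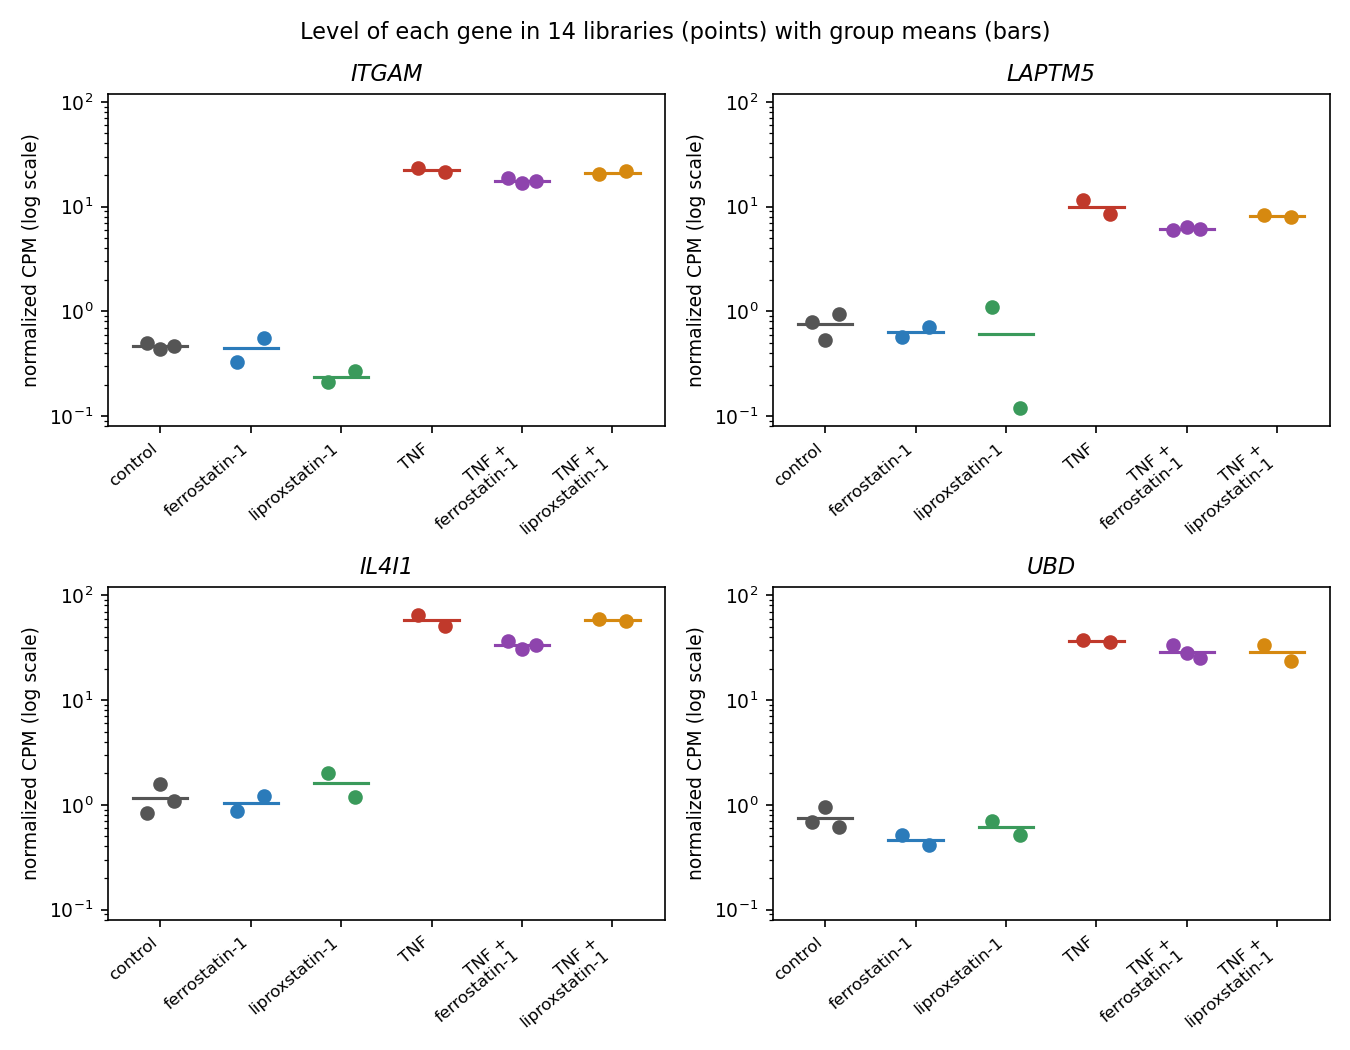
Normalized CPM on a log scale of ITGAM, LAPTM5, IL4I1 and UBD in each of 14 libraries (points) of 6 groups, with group means as bars. The 7 libraries with TNF lie above the 7 without it in each panel, the nearest pair of libraries being 5.37-fold apart for LAPTM5 and 30.7-fold for ITGAM. The share of all genes with this split was not counted.

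Between genes, levels can be compared only per length, in the deposited FPKM (fragments scaled by transcript length and by depth). FPKM was used for the 3 groups whose FPKM columns match a titled sample, which are the controls and TNF with either compound. With TNF and ferrostatin-1 the order in FPKM was UBD (37.6, 31.8 and 28.7), IL4I1 (14.8, 12.4 and 13.6), ITGAM (3.31, 3.01 and 3.11) and LAPTM5 (1.84, 2.01 and 1.91). With TNF and liproxstatin-1 it was UBD (37.9 and 26.2), IL4I1 (24.2 and 22.8), ITGAM (3.59 and 3.85) and LAPTM5 (2.58 and 2.47). No neighbours in that order overlapped within a group. In the controls UBD came first in FPKM (0.722, 1.04 and 0.619), then IL4I1 (0.313, 0.624 and 0.400), LAPTM5 (0.222, 0.153 and 0.261) and ITGAM (0.0741, 0.0679 and 0.0715). There the ranges of UBD and IL4I1 overlapped, and ITGAM lay below LAPTM5.

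TNF against control, the contrast that chose the genes, gave log2 fold changes of 5.61 for IL4I1, 5.60 for UBD, 5.57 for ITGAM and 3.74 for LAPTM5. Among all genes, 8.24% were called higher in that contrast, and 20.7% had all TNF libraries above all controls. Nothing is read from the members' own count there.

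The effect of TNF was then tested within each compound, between libraries outside the TNF against control contrast. Earlier results of these data were known when the genes and tests were chosen, so these tests are not an independent check. The estimate of spread in these tests came from all 14 libraries, so the TNF and control libraries entered the SE and p-values. In TNF with ferrostatin-1 against ferrostatin-1 all 4 genes rose, where 8.76% of genes tested were called higher. UBD rose by 5.95 ± 0.28 on the log2 scale (SE, n = 3 and 2; adjusted p = 2.86e-07, edgeR's quasi-likelihood test with Benjamini-Hochberg adjustment over all genes, as throughout). ITGAM rose by 5.32 ± 0.22 (edgeR adjusted p = 9.32e-08) and IL4I1 by 5.01 ± 0.32 (edgeR adjusted p = 1.78e-06). LAPTM5 rose by 3.28 ± 0.60 (edgeR adjusted p = 0.00272). In each the libraries of the 2 groups did not overlap, as for 27.5% of all genes in the higher direction. The median change of the 4 was 5.17, beside 0.02 over all genes.

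In TNF with liproxstatin-1 against liproxstatin-1 the 4 genes rose as well, where 7.57% of genes were called higher. ITGAM rose by 6.45 ± 0.24 (edgeR adjusted p = 6.81e-08, n = 2 and 2) and UBD by 5.55 ± 0.28 (edgeR adjusted p = 8.41e-07). IL4I1 rose by 5.20 ± 0.32 (edgeR adjusted p = 2.97e-06) and LAPTM5 by 3.76 ± 0.63 (edgeR adjusted p = 0.00252). The LAPTM5 value rests on unequal liproxstatin-1 libraries: it was 6.08 without library 1 and 2.89 without library 3, with adjusted p of 0.000106 and 0.00186. Groups did not overlap for any of the 4, as for 33.8% of all genes in the higher direction. The median change was 5.38, beside 0.06 over all genes.

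Whether the TNF response differed between the compounds was tested as an interaction, (TNF with liproxstatin-1 minus liproxstatin-1) minus (TNF with ferrostatin-1 minus ferrostatin-1). For ITGAM the difference was 1.13 ± 0.30 on the log2 scale (95% interval 0.48 to 1.78), with an unadjusted p of 0.00268 and an edgeR adjusted p of 1. It rests on low counts without TNF, 12 and 18 in liproxstatin-1 and 24 and 37 in ferrostatin-1. Liproxstatin-1 against ferrostatin-1 was -0.87 for ITGAM without TNF and 0.26 with it. UBD gave -0.40 (-1.18 to 0.39), LAPTM5 0.49 (-1.26 to 2.23) and IL4I1 0.19 (-0.67 to 1.05), all with an edgeR adjusted p of 1. No gene of 22179 was called in this test (0%). An unadjusted edgeR p below 0.05 was found for 879 genes, fewer than the 1109 expected if no gene differed. DESeq2 called 19 genes and none of the 4.

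Without TNF, the compounds moved none of the 4 genes past the threshold. For ferrostatin-1 against control 0.564% of genes were called. UBD was lower in both ferrostatin-1 libraries than in the 3 controls, by a log2 difference of -0.69 ± 0.26 (95% interval -1.27 to -0.12; unadjusted p = 0.0227, edgeR adjusted p = 0.303), and 17.6% of all genes had such a gap in the lower direction. The other intervals were -0.54 to 0.37 for ITGAM, -1.46 to 0.98 for LAPTM5 and -0.80 to 0.44 for IL4I1. DESeq2 also called none of the 4.

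For liproxstatin-1 against control 0.0586% of genes were called. ITGAM was lower in both liproxstatin-1 libraries than in any control, by -0.95 ± 0.23 (-1.46 to -0.45; unadjusted p = 0.00145, edgeR adjusted p = 0.168), and 17.9% of all genes had such a gap downward. These values rest on 12 and 18 counts against 33 to 36 in the controls. The intervals were -1.56 to 0.92 for LAPTM5, -0.17 to 1.04 for IL4I1 and -0.87 to 0.26 for UBD. None of the 4 was called by DESeq2 either.

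The compounds were compared with each other at the matched dose of 20 uM and 72 h in 2 pairs of groups. Without TNF, where 0.104% of genes were called, ITGAM differed by -0.87 ± 0.25 for liproxstatin-1 against ferrostatin-1 (-1.42 to -0.32; unadjusted p = 0.00596, edgeR adjusted p = 0.399). The gap was in 1 direction over both libraries of each group for ITGAM (lower) and UBD (higher), as for 21.1% of all genes each way. UBD was 0.38 (-0.26 to 1.03), IL4I1 0.62 (-0.06 to 1.29) and LAPTM5 -0.08 (-1.44 to 1.29). With TNF, where 0.766% were called, IL4I1 was higher in both liproxstatin-1 libraries than in the 3 with ferrostatin-1, by 0.80 ± 0.24 (0.29 to 1.32; unadjusted p = 0.00534, edgeR adjusted p = 0.233). ITGAM and LAPTM5 were also higher in both, and such a gap was seen in 18% of all genes. Fitted on these 2 groups alone, IL4I1 passed the threshold at the same size (0.80, edgeR adjusted p = 0.00401). ITGAM (0.26, -0.09 to 0.61), LAPTM5 (0.41, -0.67 to 1.49) and UBD (-0.02, -0.46 to 0.43) did not pass it in either fit, and DESeq2 called none of the 4 in either pair.

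The compounds were also set against TNF alone, with the reservation that the TNF libraries had served to choose the genes. In TNF with ferrostatin-1 against TNF none of the 4 was called, beside 5.52% of all genes, and 1 had an unadjusted p below 0.05. All 4 were lower in each of the 3 libraries with ferrostatin-1 than in both TNF libraries, as were 23.7% of all genes. IL4I1 differed most, by -0.78 ± 0.24 (-1.30 to -0.27; edgeR adjusted p = 0.0676). It was called by DESeq2 (-0.76, adjusted p = 0.0139), and by edgeR without TNF library 3 (-0.95, adjusted p = 0.00979) or without control library 2 (-0.77, adjusted p = 0.0499). Without TNF library 1 it was -0.59 (edgeR adjusted p = 0.309).

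The other differences from TNF alone were -0.70 for LAPTM5 (-1.78 to 0.37), -0.34 for UBD (-0.78 to 0.10) and -0.33 for ITGAM (-0.68 to 0.02). KRT81 was 43.7 and 50.4 CPM in the TNF libraries and 1.47 to 1.80 in the 3 with ferrostatin-1, and the part of this split in the IL4I1 difference was not tested. In TNF with liproxstatin-1, IL4I1 stood at 60.0 CPM where KRT81 was 13.55 and at 56.9 where it was 1.85.

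In TNF with liproxstatin-1 against TNF none of the 4 was called by edgeR or DESeq2, none had an unadjusted p below 0.05, and 0.343% of all genes were called. LAPTM5 and UBD were lower in both libraries than in both with TNF alone, as were 25.4% of all genes. Differences were 0.02 for IL4I1 (-0.55 to 0.59), -0.08 for ITGAM (-0.46 to 0.31), -0.30 for LAPTM5 (-1.49 to 0.89) and -0.36 for UBD (-0.84 to 0.13). For LAPTM5 the range left room for a change of more than 1 log2 unit downward.

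**Figure D2:**
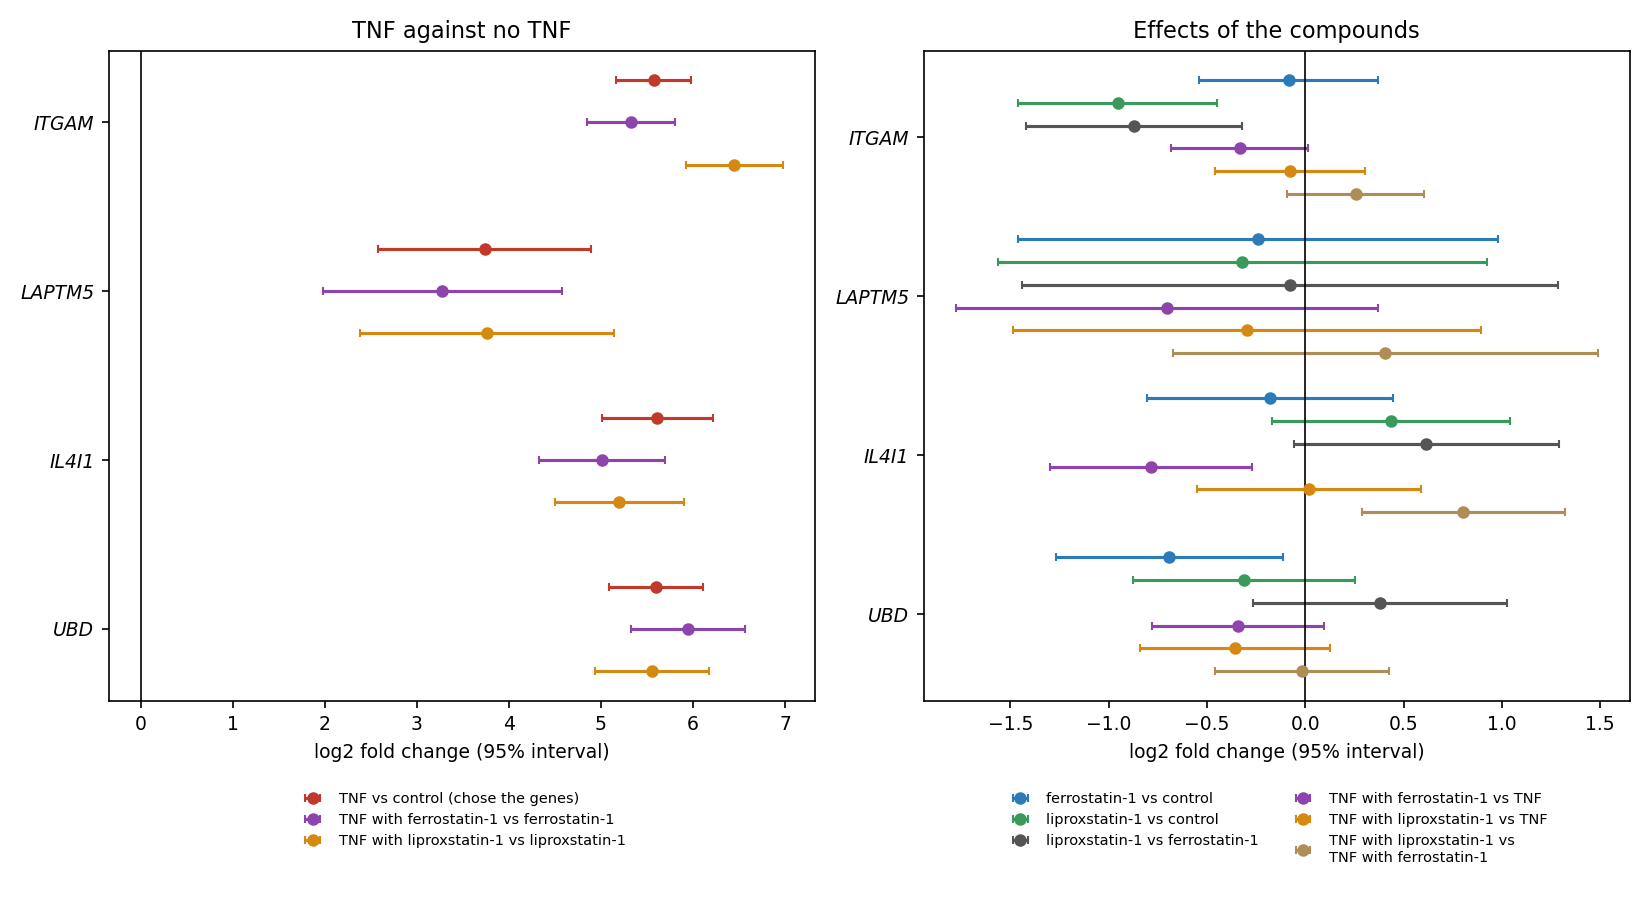
Log2 fold changes (points) with 95% intervals for the 4 genes, on the left for TNF against no TNF in 3 settings and on the right for the compounds without and with TNF. The left intervals lie at 1.98 or above, and the largest difference on the right in size is that of ITGAM in liproxstatin-1 against control, at -0.95.

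Whether a wider leukocyte programme moved with the 4 genes was looked at in 61 other leukocyte markers. Of these, 46 are in the table and 15 had no entry under the name searched. Of the 46, 28 could be tested and the others had too few counts. In TNF with ferrostatin-1 against ferrostatin-1, 2 of the 28 rose and 0 fell, where 8.76% of all genes rose and 9.36% fell, with a median log2 change of 0.17 beside 0.02 over all genes. RAC2, a GTPase of blood cells, rose by 0.67 ± 0.14 (edgeR adjusted p = 0.00709), and CD22, a B-cell lectin, by 2.52 ± 0.48 (edgeR adjusted p = 0.00378). In TNF with liproxstatin-1 against liproxstatin-1, 3 rose, LST1 and CD22 among them, and 1 fell (CD14, the receptor for bacterial lipopolysaccharide), where 7.57% of all genes rose and 7.03% fell, with a median of 0.38 beside 0.06. LST1 had 0 counts in both liproxstatin-1 libraries and at most 24 in those with TNF and liproxstatin-1. In TNF against control 5 of the 28 rose (VAV1, RAC2, LST1, CD4 and CD22) and 0 fell, where 8.24% of all genes rose, with a median of -0.16 beside -0.02.

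Levels of these markers ranged widely, and those named here were picked after their values were seen. PTPRC, the common leukocyte antigen CD45, had 4 counts in all 14 libraries together and none in the 7 with TNF. AIF1 had 5 counts in all, CD163 and TRAC 4 each and FCER1G 3, and 15 of the 46 markers had at most 25 counts over all libraries. Of the rest, 12 had a mean of 1 CPM or more without TNF, among them CD68 (13 without TNF and 16 with it), CD14 (11.6 and 10), CD37 (6.65 and 6.76), CORO1A (4.19 and 3.71) and CD4 (2.59 and 3.23). LYZ, lysozyme, which some gut epithelial cells also make, stood at 962 CPM without TNF and 938 with it. The summed level without LYZ was 101 to 118 CPM in the controls, 84.7 to 90.3 with ferrostatin-1, 99.6 to 105 with liproxstatin-1, 118 to 143 with TNF alone, 100 to 109 when ferrostatin-1 was added to TNF, and 114 to 116 when liproxstatin-1 was. In bulk RNA, more cells with a transcript and more transcript per cell cannot be told apart.

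**Figure D3:**
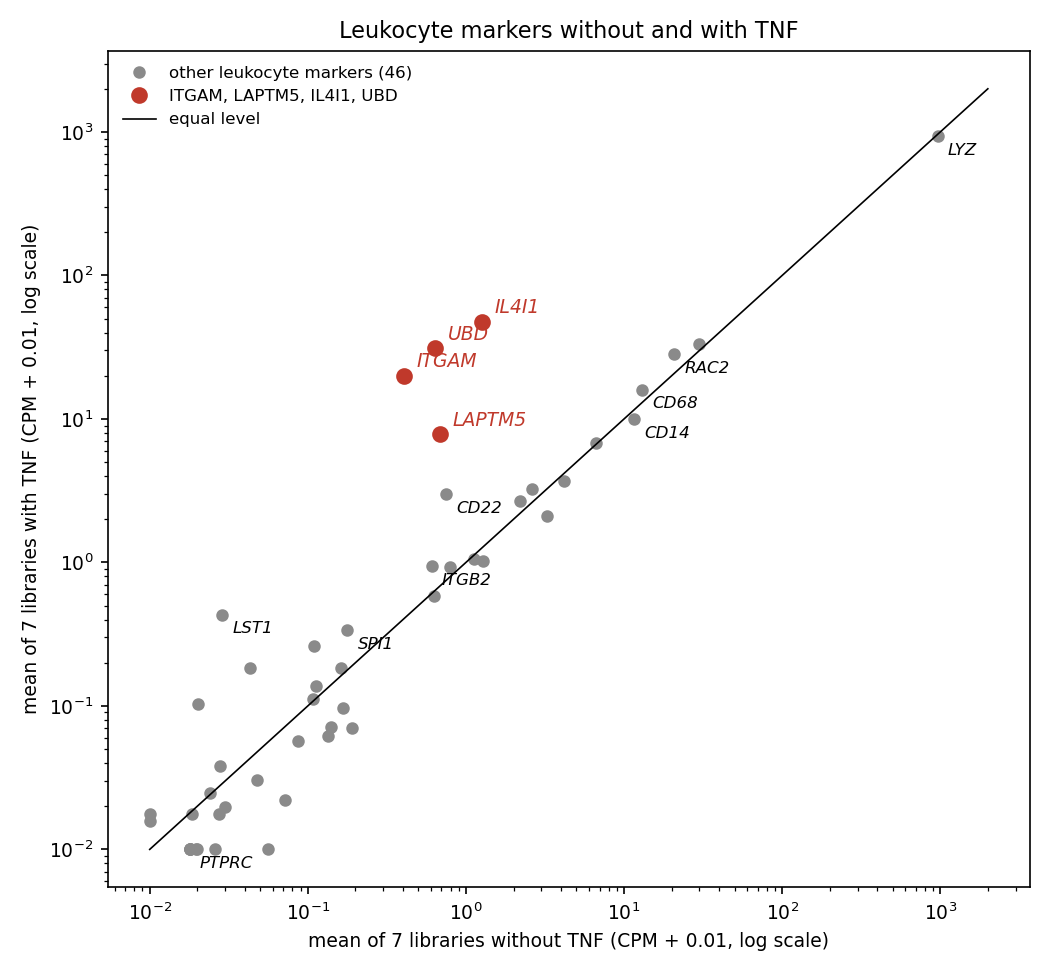
Mean CPM plus 0.01 over 7 libraries without TNF (x axis) and 7 with TNF (y axis), both on log scales, for 46 leukocyte markers (grey) and the 4 genes (red). PTPRC lies at the lower left and LYZ at the upper right near the line of equal level, while the 4 genes lie above it.

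The partner chain of ITGAM did not follow it to the same extent and was not called. ITGB2 was at 0.564, 0.704 and 0.538 CPM in the controls, 1.20 and 0.328 with ferrostatin-1, and 0.228 and 0.609 with liproxstatin-1. With TNF it was 1.46 and 0.858 alone, 1.28, 0.457 and 1.45 with ferrostatin-1, and 0.688 and 0.381 with liproxstatin-1. Groups with and without TNF overlapped for ITGB2 in both compounds. Its log2 change was 0.47 with ferrostatin-1 (-0.89 to 1.82, edgeR adjusted p = 0.685) and 0.34 with liproxstatin-1 (-1.19 to 1.87, edgeR adjusted p = 0.823). In TNF against control it was 0.94 (-0.38 to 2.26, edgeR adjusted p = 0.327). There both TNF libraries lay above all controls, as for 20.7% of all genes. Per length, the ratio of ITGAM to ITGB2 in FPKM was 0.688 to 1.03 in the controls, 15 to 48.5 in TNF with ferrostatin-1, and 37.8 and 72.1 in TNF with liproxstatin-1.

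The nearest relatives of ITGAM stayed low too. ITGAX, a paralog 22242 bases away on the same strand, had group means of 0.126 to 0.46 CPM and was not called. ITGAL had 4 counts in all libraries and ITGAD 10. Of 16 tested genes of the beta2 integrin family and its ligands, 3 rose and 1 fell with ferrostatin-1, and 2 rose with liproxstatin-1, with medians of 0.53 and 0.11. As background for this and the next lists, 8.76% of all genes rose and 9.36% fell with ferrostatin-1. With liproxstatin-1, 7.57% rose and 7.03% fell. The ligand ICAM1 rose by 3.14 with ferrostatin-1 and 2.44 with liproxstatin-1 (edgeR adjusted p = 7.53e-08 and 8.41e-07). C3, the source of the complement fragment that Mac-1 binds, rose by 4.39 and 4.81 (edgeR adjusted p = 1.21e-05 and 1.46e-05). ICAM2, another integrin ligand, rose by 1.40 with ferrostatin-1 (edgeR adjusted p = 0.00461) and was 0.84 with liproxstatin-1 (edgeR adjusted p = 0.0792).

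For LAPTM5, 8 relatives and partners were tested, among them the ubiquitously expressed LAPTM4A and LAPTM4B and ubiquitin ligases of the NEDD4 type. None was called in either compound, with medians of 0.01 and 0.09. LAPTM4A was 0.14 in TNF with ferrostatin-1 against ferrostatin-1 (edgeR adjusted p = 0.589) and LAPTM4B 0.00 (adjusted p = 0.989). In TNF against control LAPTM4A rose by 0.46 and the ligase gene WWP1 fell by 1.28 (edgeR adjusted p = 0.0464 and 0.0266). The WWP1 level was uneven, at 15.5 CPM in TNF library 1 and 50.5 in TNF library 3, beside 76.3 to 86.4 in the controls.

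Around IL4I1, 12 genes of amino acid oxidation, tryptophan breakdown and amino acid uptake were tested. With ferrostatin-1, 1 rose and 3 fell (median -0.10), and with liproxstatin-1, 2 rose and 4 fell (median 0.23). KYNU, which acts further down the kynurenine route, rose by 0.93 and 0.77 (edgeR adjusted p = 0.012 and 0.0487). Both chains of the transporter that brings large neutral amino acids into cells fell: SLC7A5 fell by 1.39 and 1.74 (edgeR adjusted p = 0.00118 and 0.00107), and SLC3A2 fell by 1.04 and 1.27 (edgeR adjusted p = 0.00266 and 0.00231). ARG2, a mitochondrial arginase, fell by 0.93 and 0.99 (edgeR adjusted p = 0.00386 and 0.00672). In TNF against control these 3 genes did not pass the test: SLC7A5 was -0.57, SLC3A2 -0.12 and ARG2 -0.24 (edgeR adjusted p = 0.117, 0.724 and 0.422). IDO1, the other inducible enzyme of tryptophan breakdown, had 0 counts in all 14 libraries.

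UBD is charged onto its targets by the enzymes UBA6 and UBE2Z. Of 20 tested genes for FAT10 conjugation and other ubiquitin-like modifiers, 7 rose with ferrostatin-1 and 3 with liproxstatin-1, and none fell, with medians of 0.32 and 0.22. The largest rises with ferrostatin-1 were those of UBE2L6, a conjugating enzyme for the modifier ISG15, by 1.84 and UBA7, its activating enzyme, by 1.70 (edgeR adjusted p = 6.99e-05 and 6.1e-06). Both also rose with liproxstatin-1, by 1.36 and 1.69 (edgeR adjusted p = 0.00111 and 1.73e-05). The protease USP18 rose by 1.06 with ferrostatin-1 (edgeR adjusted p = 0.00749) and was 0.70 with liproxstatin-1 (0.0773). The ligase HERC6 rose by 1.03 (edgeR adjusted p = 0.0283) and was 0.60 with liproxstatin-1 (0.24). ISG15 itself was 0.66 and 0.36 and did not pass the test in either (edgeR adjusted p = 0.106 and 0.457). UBE2Z rose by 0.40 with ferrostatin-1 (edgeR adjusted p = 0.0138) and was 0.22 with liproxstatin-1 (edgeR adjusted p = 0.2). UBA6 was 0.22 and 0.23 (edgeR adjusted p = 0.786 and 0.803). Its level was uneven with TNF alone, at 15.9 CPM in TNF library 1 and 71.1 in TNF library 3.

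Factors that read TNF and interferon signals were counted for the same comparisons. Of 11 tested NF-kB subunits and inhibitors 6 rose in each compound, with medians of 0.68 and 0.70, where 8.76% and 7.57% of all genes rose. TNFAIP3, the feedback inhibitor A20, rose by 4.58 and 4.14, and NFKBIA, the inhibitor of NF-kB alpha, by 2.53 and 2.28. Among 15 IRF and STAT factors, 5 rose with ferrostatin-1, and 4 rose and 1 fell with liproxstatin-1, with medians of 0.33 and 0.16. IRF1, a factor of interferon signals, rose by 0.62 with ferrostatin-1 (edgeR adjusted p = 0.0185) and was 0.20 with liproxstatin-1 (edgeR adjusted p = 0.499).

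Neighbouring genes matter for 2 members, UBD and IL4I1, whose exons overlap those of genes on the same and on the opposite strand. No source used here states how the counting treated strand or shared bases. OR2I1P, an olfactory receptor locus on the strand opposite UBD, shares 836 of the 1087 exonic bases of UBD (76.9%) in GENCODE v29. It had 0 to 15 counts in each library without TNF, 1652 and 1998 with TNF alone, 1100, 976 and 1105 when ferrostatin-1 was added to TNF, and 868 and 793 when liproxstatin-1 was. These are 40.2% to 73.7% of the UBD counts of the same libraries with TNF, and the share was 0% to 35% without TNF. Whether reads of the 2 genes were told apart in the counting is not known and was not tested. GABBR1, a GABA receptor gene on the same strand as UBD, shares 722 of those bases, and its group means were 2.27 to 3.57 CPM with no call for TNF in either compound.

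IL4I1 shares 336 of its 2563 exonic bases (13.1%) with the nuclear pore gene NUP62 on the same strand. NUP62 had group means of 149 to 171 CPM without TNF and 232 to 260 with it, and rose by 0.63 and 0.62 (edgeR adjusted p = 0.000302 and 0.000918). ATF5, on the other strand, shares 75 bases and was not called in either compound, but rose by 0.95 in TNF against control (edgeR adjusted p = 0.00408). Besides NUP62, TBC1D17 and PTOV1 were the genes within 50 kb of IL4I1 that were called in all 3 comparisons. TBC1D17, 905 bases from IL4I1, rose by 0.63 with ferrostatin-1 and 0.85 with liproxstatin-1 (edgeR adjusted p = 0.00189 and 0.000754), and by 1.03 in TNF against control. PTOV1, 28910 bases away, rose by 0.61 and 0.58 in the compounds (edgeR adjusted p = 0.00199 and 0.00581) and by 0.40 in TNF against control. No tested gene within 50 kb of ITGAM or LAPTM5 was called in these 3 comparisons. LAPTM5 overlaps only AL137857, which had 5 counts in all.

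**Figure D4:**
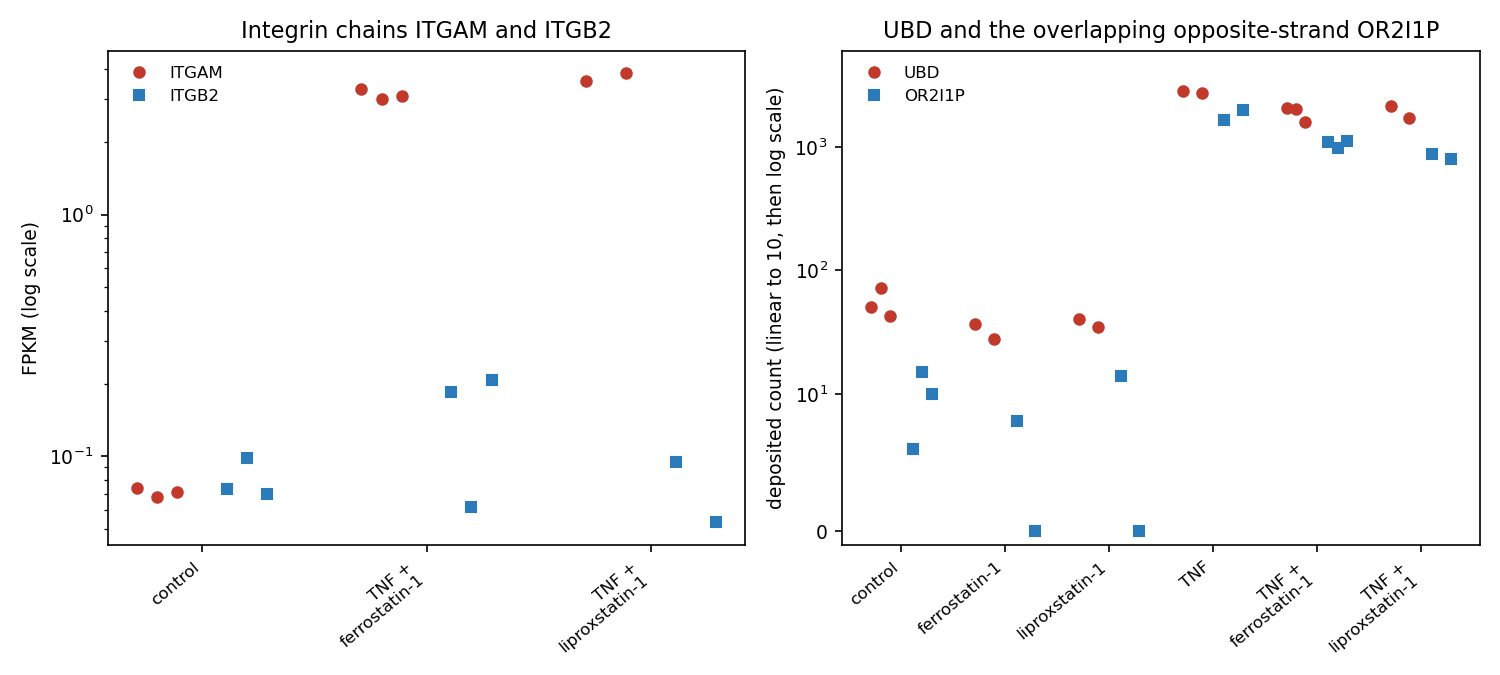
Left, FPKM on a log scale of the integrin chains ITGAM (circles) and ITGB2 (squares) in the 8 libraries of the controls and of TNF with either compound; right, deposited counts of UBD (circles) and OR2I1P (squares) in 14 libraries, on a scale that is linear to 10 and logarithmic above. The ITGAM to ITGB2 ratio is 0.688 to 1.03 in the controls and at least 15 with TNF, and OR2I1P is high in the same 7 libraries as UBD.

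As a description, the genes with the pattern most like each member were found by Pearson's r of log2 CPM over the 14 libraries. These r values share the step between libraries with and without TNF, and the libraries' depth. The closest to ITGAM was BTN3A3, a butyrophilin (r = 0.9919), and CD74, the invariant chain of class II antigen presentation, was among the next (0.9896). IL4I1 was closest to UBA7 (0.9978), with HLA-B (0.9935) and the complement factor CFB (0.9931) also among its 5. UBD was closest to TNFAIP3 (0.9937), followed by IFNAR2, a chain of the interferon receptor (0.9934), and the chemokine CXCL8 (0.9926). LAPTM5 had LTB, a TNF family cytokine, first (0.9649) and OR2I1P second (0.9599).

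Over all 14 libraries the 4 genes correlated with each other at r of 0.943 to 0.989. Within the 7 libraries with TNF, ITGAM, LAPTM5 and IL4I1 correlated at 0.883 to 0.946, and UBD with each of these at 0.388 to 0.518. Those 7 libraries come from 3 treatments, whose group levels enter these values.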

How the data were processed

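The deposited table holds whole-number counts and FPKM per gene for 14 libraries, as the authors made them. Libraries were poly(A), dUTP-stranded and paired-end, per the labels' protocols. The submitters' processing notes name edgeR, DESeq2, StringTie 1.3.4d, HISAT2 2.0.4 and cutadapt 1.9 without their roles. Build, annotation, counter and strand setting: not given in the sources used here. Positions are those of the deposited table. For TNF and for each compound alone, column numbers (1 and 3) differ from title numbers (1 and 2), so count columns were matched by group and the 6 FPKM columns of these groups were not used.

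Counts were scaled by TMM and filtered by filterByExpr in edgeR 4.0.16 (R 4.3.3, limma 3.58.1). A single quasi-likelihood model of 6 group means gave all tests, with Benjamini-Hochberg adjustment over 22179 genes and a threshold of 0.05. The SE is the size of the log2 change divided by the square root of F, and intervals are 95% t intervals. Both are approximate. The model was tested on simulated counts. Alternatives were RLE scaling, other count filters, DESeq2 1.42.0, the compared groups alone, a replicate block and each library left out.

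The members, gene lists and tests were chosen with earlier results of these data known. Named were the 4 members, up to 4 called genes a list and direction with the largest change in TNF with ferrostatin-1 against ferrostatin-1, genes at 0 counts, the 5 genes most like each member, and genes within 50 kb. Partners, defining markers, uncalled genes, KRT81 and calls seen only with liproxstatin-1 were named after their values were seen. Similarity used log2 CPM with a prior count of 2. Motifs were searched in RefSeq windows. Some called genes of the lists are counted but not reported here by name.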

Additional observations from a re-analysis of the deposited data

How the results depend on the processing

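All 4 genes were called in both comparisons of TNF within a compound under each of 20 alternatives. No other member count changed, except that IL4I1 made it 1 in TNF with ferrostatin-1 against TNF (DESeq2; leaving out 1 library gave 0 to 1) and 1 in TNF with liproxstatin-1 against TNF with ferrostatin-1 (the compared groups alone). Causes were not tested.

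Same-numbered libraries did not deviate together in the comparisons where this was measured (r of -0.096 to 0.013). These values show no effect shared by number across genes, but they cannot decide whether samples were paired. The replicate block left 4 called in TNF with ferrostatin-1 against ferrostatin-1 and in TNF with liproxstatin-1 against liproxstatin-1, and 0 in the other comparisons. With the block IL4I1 turned to -0.08 in TNF with liproxstatin-1 against TNF.

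Other uncalled values changed sign when 1 library was left out, and the ranges were as follows: IL4I1 -0.15 to 0.21 in TNF with liproxstatin-1 against TNF (-0.15 without TNF 3, -0.02 without TNF with liproxstatin-1 1), -0.43 to 0.10 in ferrostatin-1 against control (0.10 without control 2, 0.04 without ferrostatin-1 1), and -0.15 to 0.61 in the interaction (-0.15 without liproxstatin-1 3, -0.06 without ferrostatin-1 3). ITGAM ran from -0.49 to 0.24 in ferrostatin-1 against control (0.24 without ferrostatin-1 1). LAPTM5 ran from -2.64 to 0.55 in liproxstatin-1 against control, -2.40 to 0.80 in liproxstatin-1 against ferrostatin-1 (0.08 without ferrostatin-1 3) and -0.39 to 2.80 in the interaction; 0.55, 0.80 and -0.39 are without liproxstatin-1 3. UBD ran from -0.32 to 0.22 in TNF with liproxstatin-1 against TNF with ferrostatin-1 (0.10 without TNF with ferrostatin-1 1, 0.22 without TNF with liproxstatin-1 2).

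The number of all genes called depended on the libraries and the tool. Over the 20 alternatives it ranged from 397 to 7380 in TNF against control (3255 as reported), 1877 to 6937 in TNF with ferrostatin-1 against ferrostatin-1 (4019), 1328 to 5943 in TNF with liproxstatin-1 against liproxstatin-1 (3240), 11 to 7373 in TNF with ferrostatin-1 against TNF (1224), and 0 to 6797 in TNF with liproxstatin-1 against TNF (76). It was 26 to 575 in TNF with liproxstatin-1 against TNF with ferrostatin-1 (170), 13 to 801 in ferrostatin-1 against control (125), 1 to 512 in liproxstatin-1 against control (13), 3 to 220 between the compounds without TNF (23) and 0 to 19 in the interaction (0). At 8 to 120 counts per gene without TNF, differences between the compounds there had wide intervals.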
